A study of Mus musculus with 6 samples.

Results

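Polycomb proteins keep genes silent through a pair of chromatin complexes. Polycomb repressive complex 2 (PRC2) methylates histone H3 through Ezh2 or its relative Ezh1, which work only when bound to Eed and Suz12. Canonical Polycomb repressive complex 1 (PRC1) reads that methyl mark with the chromodomain of a CBX protein and adds ubiquitin to histone H2A through Rnf2 (RING1B) or its relative Ring1. In epidermis, Polycomb activity is known for holding back differentiation and non-epidermal genes in basal cells and for repressing the Cdkn2a locus.

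The 9 genes described here are Cbx2, Cbx6, Cbx7, Cbx8, Rnf2, Ezh1, Ezh2, Eed and Suz12, out of 18193 genes with a probe set of their own on the array. They were chosen by their place in these complexes and by the values of the Sox2cKO arrays against the control arrays, in which Cbx6 stood low. The differences between those groups are therefore given for the 9 genes as a description, without a test. Every probe set annotated to exactly 1 of the 9 symbols was used, 27 in all. A probe set passed the filter on low values where at least 3 of the 6 arrays exceeded the 40th percentile of their array (4.90 to 4.94 on the log2 scale). All 9 genes had a probe set that passed, and 19 of the 27 probe sets did.

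RNA came from tumour epithelial cells of benign skin papillomas that had been induced chemically in mice. The control mice (CTRL, 3 arrays) and the K14CREER:SOX2fl/fl mice (Sox2cKO, 3 arrays) had all been given tamoxifen for 1 week. In the latter a Cre recombinase under the keratin 14 promoter removes floxed Sox2 from cells of the basal epidermal lineage. The genotype of the controls beyond that name, the ages and the number of animals per array are not given in the sources used here. Cells were sorted as Epcam-positive and alpha6 integrin-positive, without CD45, CD31 or CD140a, and RNA was measured on Affymetrix whole-genome mouse arrays. The series text speaks of 3 biological experiments, and whether an array holds 1 animal or a pool is not given.

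The arrays were alike in overall level, with medians of 5.42 to 5.46 and correlations of 0.965 to 0.989 over tested probe sets. Sox2, the deleted gene, read 7.19, 8.31 and 8.18 in CTRL and 4.07, 4.63 and 3.23 in Sox2cKO, and its adjusted p of 0.316 in limma was the lowest of all genes. The basal keratinocyte genes Krt14 (13.94 to 14.16) and Krt5 (13.32 to 13.45) were high on every array. Control replicates 2 and 3 stood apart in sex-linked genes. Xist, the RNA of the inactive X chromosome, read 12.03 and 11.85 there and 6.08 to 7.54 on the other 4 arrays. Sox2cKO replicate 3 stood apart in fibroblast genes, described with Cbx6. In bulk RNA, fewer cells of a type and less RNA per cell cannot be told apart. Across all 13222 genes tested, the number that passed a Benjamini-Hochberg adjusted p of 0.05 in limma was 0 (0%), with 354 at an unadjusted p under 0.05.

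Cbx6 and Ezh2 were the members whose means lay farthest below the controls, and the region before each start is shown so that the letters can be read beside the values. Both come from RefSeq in build GRCm38.p6, on the minus strand, written 5′ to 3′. In Cbx6 (chr15:79834334-79834583, the 250 bases before the start) the capitals mark ACAATG, 1 of the 2 forms of the SOX core motif searched. In Ezh2 (chr6:47595001-47595280, from 250 bases before the start to 30 after it) they mark ACAAAG, the other form of that motif, and TTTGGCGC, a motif of E2F factors, which switch on cell cycle genes. The start is that of the promoter table, and the full RefSeq span of Ezh2 begins farther upstream, so that most of its printed stretch lies inside the annotated gene.
Cbx6: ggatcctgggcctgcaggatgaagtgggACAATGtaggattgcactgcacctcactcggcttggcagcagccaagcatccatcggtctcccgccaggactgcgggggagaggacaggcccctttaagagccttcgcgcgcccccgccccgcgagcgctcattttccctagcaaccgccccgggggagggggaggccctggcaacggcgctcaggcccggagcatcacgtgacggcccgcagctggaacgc
Ezh2: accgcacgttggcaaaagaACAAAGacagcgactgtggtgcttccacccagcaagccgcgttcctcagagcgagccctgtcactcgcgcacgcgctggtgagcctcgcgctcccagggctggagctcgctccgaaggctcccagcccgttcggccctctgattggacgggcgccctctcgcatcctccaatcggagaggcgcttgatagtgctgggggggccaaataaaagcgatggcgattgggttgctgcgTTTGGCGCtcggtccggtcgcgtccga

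Promoter windows of 300 bases (250 before to 50 after the start) were matched for 8 of the 9 genes. Cbx2 had no entry. The windows of Cbx7 and Ezh2 lie at starts inside the full span of the gene. On either strand, ACAATG or ACAAAG occurred in 2 of these 8 windows, those of Cbx6 and Ezh2, against 28.6% of 32851 windows of all genes. TTTGGCGC occurred in 1 of the 8, Ezh2, against 0.514% of all windows. A second E2F form, TTTCGCGC, was in 0 of the 8 and in 0.323% of all windows. The Polycomb windows were rich in G and C, at 54.7% to 72.7% against a median of 52.7% over all windows. Their CpG content, as observed over expected, lay between 0.758 and 1.09, against a median of 0.384. These matches describe letters and are not sites shown to be bound.

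**Figure D1:**
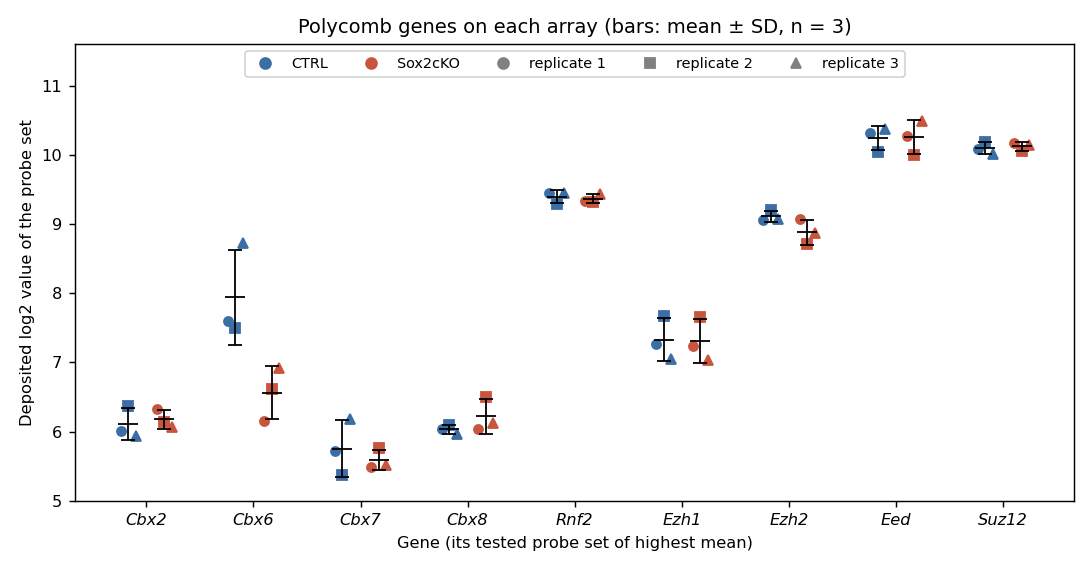
Deposited log2 value (vertical axis) of each of the 9 Polycomb genes (horizontal axis) on the 6 arrays, CTRL in blue and Sox2cKO in red, with the shape giving the replicate number and black bars the mean ± SD (n = 3). In Cbx6 every red point lies below every blue point, and in the 8 other genes the groups overlap.

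In both of its probe sets the highest Sox2cKO value of Cbx6 lay below the lowest control value. It encodes a chromodomain protein of the Polycomb class of CBX proteins. Its brighter probe set (1424407_s_at) read 7.59, 7.50 and 8.73 in CTRL and 6.15, 6.61 and 6.91 in Sox2cKO. Control replicate 3 was the highest array and Sox2cKO replicate 1 the lowest. The means were 7.94 ± 0.69 and 6.56 ± 0.38 (SD, n = 3 each). Sox2cKO minus CTRL came to -1.38 on the log2 scale (standard error 0.45), or 2.61-fold lower. The other probe set (1429290_at), designed on another sequence record, read 7.10, 6.82 and 7.68 in CTRL and 6.23, 6.32 and 6.69 in Sox2cKO. Its means were 7.20 ± 0.44 and 6.41 ± 0.25 (SD, n = 3 each), and the difference of -0.78 (standard error 0.29) was 1.72-fold.

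Both Cbx6 probe sets put the 6 arrays in the same order. From high to low it ran control replicates 3, 1 and 2 and then Sox2cKO replicates 3, 2 and 1. They differed in size, not in order. The first probe set exceeded the second by 0.50, 0.68 and 1.05 in the controls, and by -0.07, 0.28 and 0.22 in Sox2cKO. Of the 9 genes, 1 (11.1%) had groups that did not overlap, which was Cbx6, where 5.85% of all genes tested had such groups and 3.12% had them with Sox2cKO lower. Among the 6019 genes with 2 or more tested probe sets, 22 (0.366%) had every tested probe set lower without overlap, Cbx6 among them. Since Cbx6 was picked on this contrast, nothing is read from these shares.

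Within the replicate numbers the difference had one sign in all 3 pairs, as it must where the groups do not overlap. Sox2cKO minus CTRL was -1.44, -0.89 and -1.82 for replicates 1, 2 and 3 in the first probe set, and -0.87, -0.50 and -0.99 in the second. Against control replicate 1 alone, the control with the Xist level of the Sox2cKO arrays, the differences were -1.03 and -0.68. Without control replicate 3 they were -0.99 and -0.55. The pooled SD of Cbx6 was 0.56, against a median of 0.19 over all genes tested, and 5.10% of genes had an SD as large. In all, 15 of the 13222 genes had a difference of -1.38 or lower, Cbx6 included.

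**Figure D2:**
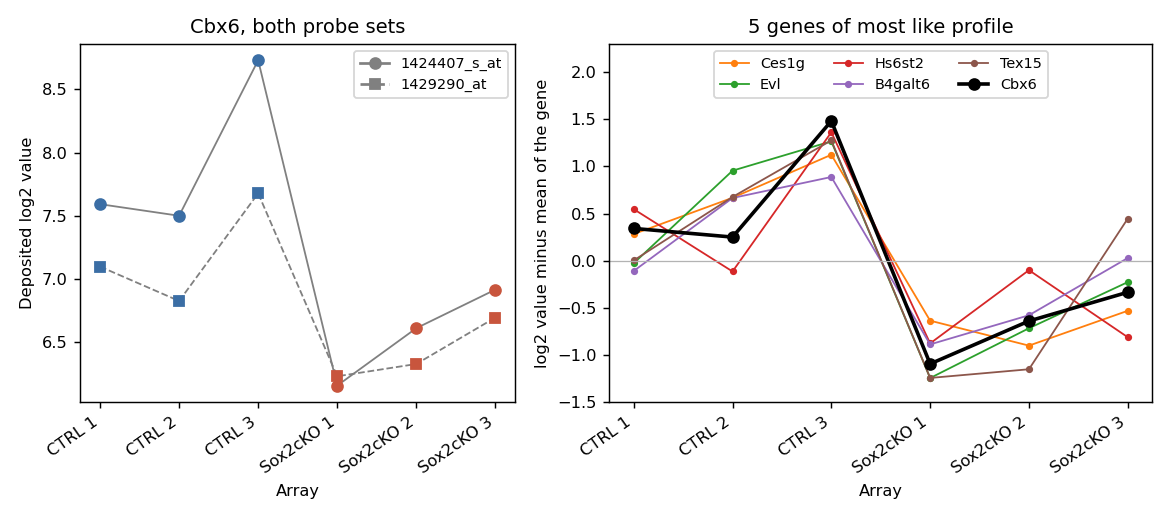
Left, the deposited log2 values of both Cbx6 probe sets on each array, CTRL in blue and Sox2cKO in red: the lines keep one order of arrays and lie closest together in Sox2cKO replicate 1. Right, log2 values minus the mean of each gene for Cbx6 (black) and the 5 genes with the most like profile, all highest in control replicate 3.

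Markers of other cell types also differed between the groups, and their part in the Cbx6 difference was not tested. All 10 fibroblast and pericyte markers tested were higher in mean in Sox2cKO, opposite to Cbx6. Their summed level, as log2 of the sum of linear values, was 10.77 to 12.00 in CTRL and 11.99 to 13.91 in Sox2cKO. Pdgfra, which encodes the CD140a used to exclude cells in the sort, read 5.05 to 5.52 in CTRL and 5.49 to 7.25 in Sox2cKO. Sox2cKO replicate 3 had the highest mean of these markers relative to the other arrays (1.55), and without it the Cbx6 difference was -1.56. Control replicate 3, the highest array in Cbx6, had the lowest mean of these markers (-1.13), and without it the Cbx6 difference was -0.99. Of 6 leukocyte markers tested, 3 were lower, and H2-Ab1 and Cd74, which serve antigen presentation, were lower without overlap (log2 differences of -1.26 and -1.09). The summed leukocyte level was 9.80 to 10.27 in CTRL and 8.75 to 9.65 in Sox2cKO, while Ptprc, which encodes CD45, differed by 0.10. Of 4 endothelial markers 1 was tested, Kdr (0.03). Neuron markers (2 of 4 tested, differences of 0.05 and 0.16) and Schwann cell markers (2 of the 2 with a probe set tested, -0.07 and 0.05) were within 0.2 of no difference. All 6 suprabasal keratinocyte markers were higher in mean (median 0.28), and melanocyte markers were 2 higher and 2 lower. Of 7 basal keratinocyte markers, 3 were higher and 4 lower, and Krt15 was lower without overlap (-0.56). Higher without overlap were Lor (0.33), a suprabasal gene, and the fibroblast and pericyte genes Col5a1 (0.86) and Pdgfrb (0.51). Groups that did not overlap, in either direction, were found in 5.85% of all genes. None of these marker genes passed the adjusted threshold.

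By root mean square difference between centred log2 profiles over the 6 arrays, the genes most like Cbx6 were Ces1g (0.32), Evl (0.35), Hs6st2 (0.36), B4galt6 (0.39) and Tex15 (0.45), where the median over 13221 genes was 0.85. Ces1g encodes a carboxylesterase and Evl an actin regulator of the Ena/VASP family. Hs6st2 sulfates heparan sulfate, B4galt6 makes lactosylceramide, and Tex15 is a gene of germ cells. Their differences lay between -0.96 and -1.46, and Ces1g and Evl had groups that did not overlap. Such differences follow from the choice, since these genes were picked for likeness to Cbx6, itself picked on this contrast. Ces1g read 4.35, 4.08 and 4.45 in Sox2cKO, all below the level used by the filter (4.90 to 4.94). Ces1g passed the filter through the control arrays alone, so nothing is read from the size of its difference. Of the other members the closest was Cbx7 (0.68), at rank 219 of 13221, and the rest ranked from 1798 (Ezh2) to 10822 (Ezh1). All these genes share the 6 arrays and the grouping, so the ranking is a description.

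In the RefSeq gene order Cbx6 and Cbx7 lie close together on chromosome 15, with D730005E14Rik and Apobec3 between them, and Cbx2 and Cbx8 are neighbours on chromosome 11. The 3 nearest tested genes on one side of Cbx6, Dnal4, Sun2 and Gtpbp1, differed by -0.09, -0.14 and -0.09. On the other side D730005E14Rik differed by -0.17 and Cbx7 by -0.17, with overlapping groups. Apobec3, a cytidine deaminase gene that restricts retroviruses, read 6.39, 6.49 and 6.46 in CTRL and 5.62, 5.82 and 6.22 in Sox2cKO, a difference of -0.56 (standard error 0.18) without overlap. The RefSeq gene Npcd spans the whole of Cbx6 and has no probe set of its own here, and whether the Cbx6 probe sets also read its transcripts was not tested.

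The other CBX genes showed no such division. Cbx7, whose protein binds methylated H3 in canonical PRC1, read 5.72, 5.37 and 6.18 in CTRL and 5.48, 5.76 and 5.52 in Sox2cKO (1433557_at). The Sox2cKO values all lay inside the control range, and the difference was -0.17 with a standard error of 0.25. Its sign differed between replicate numbers, at -0.23, 0.39 and -0.66, and it turned to 0.05 without control replicate 3. The other 2 probe sets of Cbx7 did not pass the filter and differed by 0.01 and -0.07.

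Cbx8, another reader subunit of canonical PRC1, read 6.03, 6.09 and 5.96 in CTRL and 6.03, 6.50 and 6.12 in Sox2cKO (1419198_at). Sox2cKO replicate 2 was the high array, and without it the difference was 0.05 in place of 0.19. The second probe set, whose values reached the filter on 4 arrays, had the same high array and a difference of 0.10. Cbx2, whose protein also compacts chromatin, read 6.01, 6.37 and 5.94 in CTRL and 6.32, 6.14 and 6.06 in Sox2cKO (1434116_at), a difference of 0.07 with a standard error of 0.15. Its other probe set (1422059_at) stayed below the 40th percentile on all 6 arrays.

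Rnf2, the ubiquitin ligase shared by canonical and variant PRC1, varied little between arrays. It read 9.45, 9.28 and 9.44 in CTRL and 9.34, 9.32 and 9.44 in Sox2cKO (1424873_at), a difference of -0.03 with a standard error of 0.07. A second bright probe set (1451519_at) gave 9.04, 8.48 and 8.83 against 8.94, 8.92 and 8.83, so that control replicate 2 was the low array and the difference 0.11. The 3 dim probe sets of Rnf2, of which 1 passed the filter, differed by -0.05, -0.05 and -0.07.

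**Figure D3:**
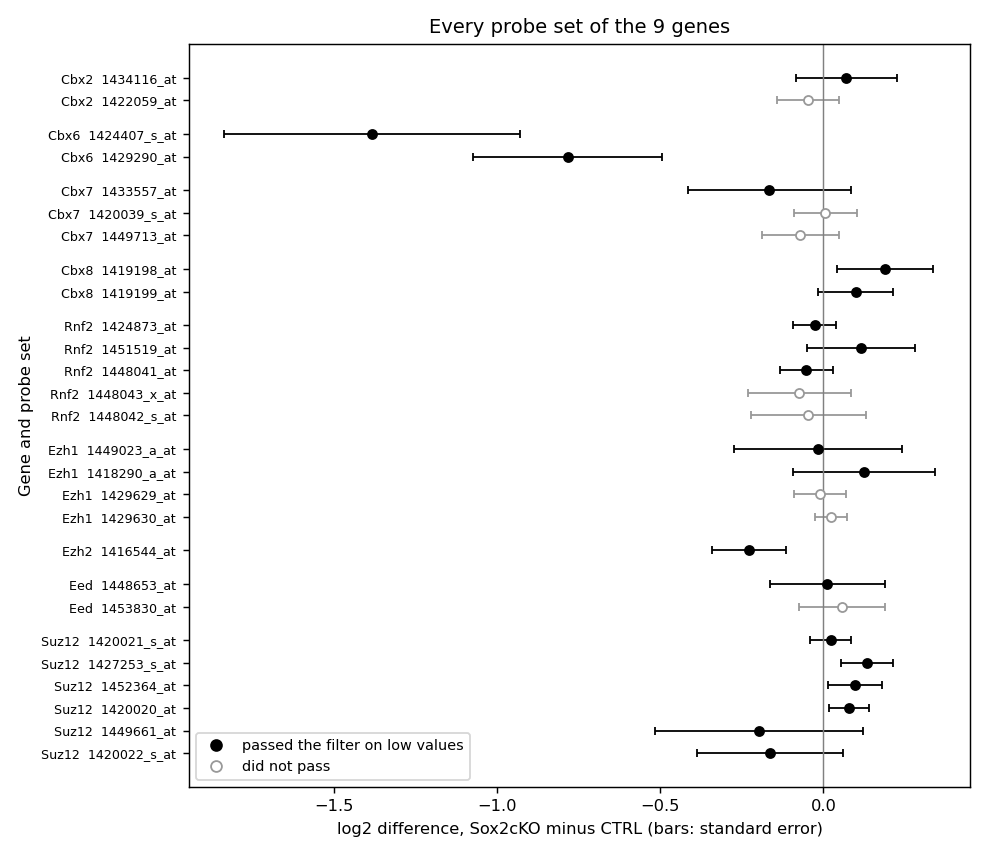
Log2 difference, Sox2cKO minus CTRL (horizontal axis), of all 27 probe sets of the 9 genes, with standard errors as bars; filled points passed the filter on low values and open points did not. Both Cbx6 probe sets lie to the left of the others, and the 17 other probe sets that passed lie between -0.23 and 0.19.

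Among the PRC2 enzymes, Ezh2 differed by -0.23 and Ezh1 by -0.02. Ezh2, the methyltransferase of dividing cells, read 9.05, 9.20 and 9.07 in CTRL and 9.06, 8.71 and 8.87 in Sox2cKO (1416544_at, its only probe set). Sox2cKO replicate 1 lay just above control replicate 1, so the groups overlapped. The means were 9.11 ± 0.08 and 8.88 ± 0.18 (SD, n = 3 each), a difference of -0.23 with a standard error of 0.11, or 1.17-fold lower. The difference was -0.14 without Sox2cKO replicate 2 and -0.32 without Sox2cKO replicate 1, and between replicates 1 alone it was 0.01.

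Cell cycle genes were lower in mean alongside Ezh2, and their part in its difference was not tested. In the probe set that stood for each, all 12 tested genes of a cell cycle list were lower in Sox2cKO (median -0.25). Of the 12, 0 passed the adjusted threshold. Other tested probe sets ranged from -0.28 to 0.06 in Kif11 and from -0.08 to 0.10 in Mcm5. Those of Mcm6, Ccna2, Top2a and Mcm2 were lower. The spindle genes Nusap1 (-0.35) and Kif11 (-0.25) and the thymidine kinase gene Tk1 (-0.51) were lower without overlap, 3 of the 12, where 3.12% of all genes were. The mean of the 12 genes, centred over arrays, was 0.02, 0.21 and 0.13 in CTRL and -0.03, -0.36 and 0.03 in Sox2cKO. Ezh2 and this mean shared their highest array, control replicate 2, and their lowest, Sox2cKO replicate 2. They parted at Sox2cKO replicate 3, where Ezh2 was low and the cell cycle mean was not. The Ezh2 window carries the E2F motif marked in its sequence, and whether E2F factors act there in these cells was not tested.

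Ezh1, the methyltransferase more typical of resting and differentiated cells, had its replicates in the same order in both groups. It did not pass the test of replicate number given with Eed. It read 7.27, 7.67 and 7.05 in CTRL and 7.24, 7.66 and 7.03 in Sox2cKO (1449023_a_at), so that replicate 2 was the highest and replicate 3 the lowest in both groups. Sox2cKO minus CTRL within replicates 1, 2 and 3 was -0.03, -0.01 and -0.02. The second probe set that passed (1418290_a_at) read 5.54, 5.95 and 5.26 in CTRL and 5.65, 5.87 and 5.61 in Sox2cKO, with the same highest and lowest replicates. The 2 dim probe sets of Ezh1 stayed below the 40th percentile on every array.

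Eed, the subunit that binds methylated H3 and stimulates the enzyme, had the reverse order of replicates, again in both groups. It read 10.31, 10.04 and 10.37 in CTRL and 10.27, 10.00 and 10.49 in Sox2cKO (1448653_at), lowest in replicate 2 and highest in replicate 3 of both groups. The difference between groups was 0.01 with a standard error of 0.18. A limma test of replicate number with the groups in the fit, added after these values were seen, does not use the contrast that chose the members. The adjusted p over all 13222 genes was 0.340 for Ezh1, 0.417 for Eed and 0.369 for Cbx6, and none of the 9 genes passed. Among all genes 0 passed (0%), and 1622 had an unadjusted p under 0.05.

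Suz12, the scaffold that holds PRC2 together, had 6 probe sets, all of which passed the filter. The brightest (1420021_s_at) read 10.09, 10.19 and 10.02 in CTRL and 10.18, 10.05 and 10.14 in Sox2cKO, a difference of 0.02 with a standard error of 0.06. The other 2 bright probe sets were slightly higher in Sox2cKO, at 0.13 (1427253_s_at) and 0.10 (1452364_at), with overlapping groups. Of the 3 dim ones, 1420020_at differed by 0.08, while 1449661_at and 1420022_s_at differed by -0.20 and -0.16. Control replicate 2 was the highest array in both of the latter, at 6.22 and 5.67. The sign of the Suz12 difference thus depended on the probe set, and every one was within 0.2 of no difference.

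**Figure D4:**
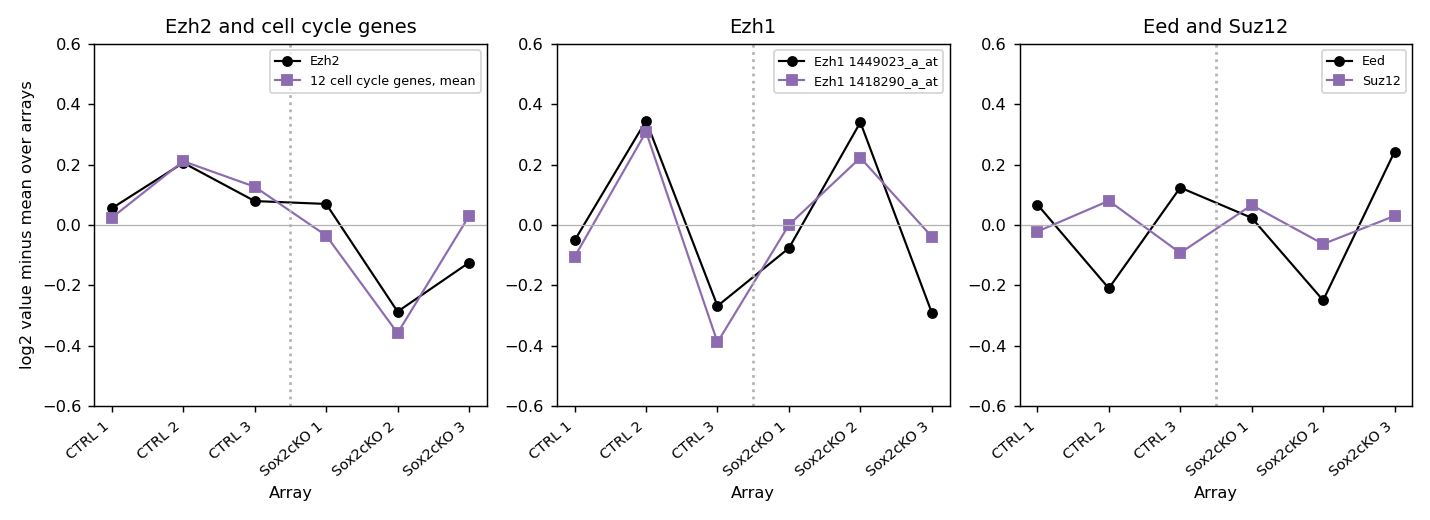
Log2 values minus the mean over the 6 arrays for Ezh2 with the mean of 12 cell cycle genes (left), both passing Ezh1 probe sets (middle), and Eed and Suz12 (right); the dotted line divides CTRL from Sox2cKO. Ezh1 peaks in replicate 2 of both groups and Eed dips there, while Ezh2 and the cell cycle mean are lowest in Sox2cKO replicate 2.

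As a set the 9 genes lay close to the rest of the array. In mean, 5 were lower in Sox2cKO and 4 higher. The median difference was -0.02, against 0.00 over all genes tested. The median size of the difference, whatever its sign, was 0.07, against 0.10 over all genes. A difference of at least 1.2-fold was found in 1 member, Cbx6, and in 14.2% of all genes.

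The other Polycomb genes were read from lists of 81 genes, of which 79 had a probe set and 63 were tested. In limma 0 of the 63 passed the adjusted threshold in either direction, and 30 were higher in mean and 33 lower. An unadjusted p under 0.05 in limma was found in 3 (4.76%), against 2.68% of all genes tested. These 3 were Jarid2, Hoxa9 and the Y-linked Uty, which read low only in the controls with high Xist. Groups did not overlap in 1 of the 63 (1.59%), against 5.85% of all genes. That gene was Rbbp4, named here after its value was seen. This histone-binding PRC2 partner differed by -0.17, and its other tested probe sets ranged from -0.11 to 0.06.

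Among PRC1 genes differences were small in the probe set that stood for each gene. The 7 tested canonical subunits, 4 higher and 3 lower, had a median of 0.00, and the largest was in the Polyhomeotic gene Phc2 (-0.29, and -0.34 in its other tested probe set). Rnf2's relative Ring1 differed by 0.25 and Bmi1, a RING partner that supports the ligase, by 0.03. The 14 tested genes of variant PRC1 were evenly divided, with differences of -0.17 to 0.18. Some of their other tested probe sets lay outside that range, such as those of Pcgf5 (-0.35 and 0.48), Bcorl1 (-0.35) and Mga (up to 0.37). The 3 HP1 class CBX genes, which read a different H3 mark, were all lower in mean, by at most 0.23 (Cbx5). That direction depended on the probe set, since other tested probe sets ranged from -0.08 to 0.16 in Cbx5 and from -0.17 to 0.12 in Cbx1.

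Of the tested PRC2 partners Jarid2 had the largest difference. Jarid2, which helps bring PRC2 to its targets, read 10.55, 10.03 and 10.05 in CTRL and 10.81, 10.45 and 10.76 in Sox2cKO. Control replicate 1 lay above Sox2cKO replicate 2, so the groups overlapped. The difference was 0.47 (standard error 0.20, adjusted p 0.999 in limma), and the other 2 tested probe sets pointed the same way, at 0.42 and 0.73. The 8 partners tested had a median of 0.00, with 4 higher and 4 lower.

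Of the enzymes that oppose Polycomb, Kdm6a and its Y-linked relative Uty followed the sex-linked genes. Kdm6a, an X-linked H3 demethylase, read 8.51, 9.18 and 9.02 in CTRL and 8.60 to 8.66 in Sox2cKO. Uty read 7.01, 3.51 and 3.50 in CTRL and 6.85, 7.43 and 6.86 in Sox2cKO. In both genes the controls with high Xist, replicates 2 and 3, stood apart from control replicate 1. The 6 other tested genes of this list differed by -0.26 to 0.15.

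Known targets of Polycomb repression did not move one way. Of 33 Hox genes with a probe set 19 were tested, and 8 were higher and 11 lower in mean, with a median of -0.04. Hoxa9 had the largest difference. It read 8.91, 9.33 and 8.55 in CTRL and 7.08, 7.42 and 8.75 in Sox2cKO, so that Sox2cKO replicate 3 lay among the controls. The difference was -1.18 (standard error 0.56, adjusted p 0.999 in limma), and -0.50 in its other tested probe set. Hoxb6 and Hoxc13, next by unadjusted p, differed by -0.31 and 0.48, with overlapping groups.

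Cdkn2a, the cell cycle inhibitor locus that CBX proteins and Ezh2 are known to repress, read 9.62, 9.01 and 9.47 in CTRL and 7.70, 9.18 and 8.94 in Sox2cKO. The low array was Sox2cKO replicate 1, which was also the lowest in Cbx6, and the difference was -0.76 with a standard error of 0.50. Its neighbour Cdkn2b differed by -0.16. Cdkn1a and Cdkn1c, inhibitors of cyclin-dependent kinases, differed by 0.40 and 0.34. None of the 4 passed (adjusted p 0.999 in limma for each), and their groups overlapped.

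**Figure D5:**
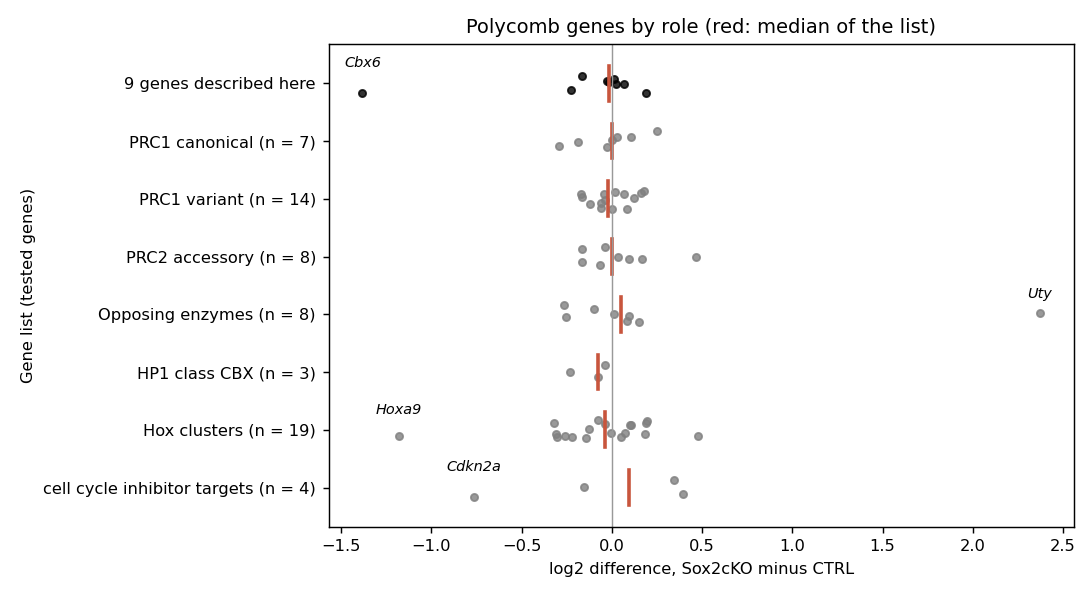
Log2 difference, Sox2cKO minus CTRL (horizontal axis), of the 9 genes described here and of the tested genes of 7 lists of other Polycomb genes and targets (grey points), with the median of each in red. Medians lie between -0.08 and 0.09, and Cbx6, Uty, Hoxa9 and Cdkn2a lie farthest from 0.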

How the data were processed

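The deposited values are log2 expression, 1 per probe set and array, on a scale read from their range. The submitters' processing notes name R 2.14.0. Background correction, summarising and normalization are not given in the sources used here. Near-equal array medians mean that a shift shared by most genes would not be seen, and low values flatten towards background (3.30 to 3.44 for 3 unspiked bacterial control probe sets), which understates differences of dim genes.

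Of 45037 mouse probe sets, 34945 had 1 symbol and 932 had several, which were left out. A gene was represented by its tested probe set of highest mean. Group differences were tested two-sided by limma (version 3.58.1, under R 4.3.3) with Benjamini-Hochberg values adjusted over 13222 genes, a procedure tested on simulated data. Standard errors come from the spread within groups. Precision is limited by 3 arrays per group. Probe levels of different genes were not compared.

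Arrays of one replicate number deviated together from their group means (correlations across genes of 0.206 to 0.288). Differences within replicate numbers are therefore also given, and a replicate block was fitted as an alternative. The main limma fit and the standard errors did not pair the arrays. The 9 genes and all lists were chosen with earlier results of these data known. Besides the members and Sox2, genes named are up to 3 per Polycomb list of smallest unadjusted p with at least a 1.2-fold difference, the 5 of most like profile and 3 tested neighbours on each side of Cbx6. Others were named after their values were seen.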

Additional observations from a re-analysis of the deposited data

How the results depend on the processing

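With the replicate block 0 of 13222 genes passed, as without it. A sex covariate, read from Xist against Eif2s3y and not from labels, set apart only control replicates 2 and 3. With it the group difference rests on control replicate 1 alone, and that of Cbx6 was -1.03. Leaving out single arrays gave 0 to 5 passing genes, the 5 (Sox2, Xist, Eif2s3y, Kdm5d and Uty) without control replicate 1. Among the Polycomb lists 0 to 1 passed when arrays were left out, the 1 being Uty. The remaining settings (mean of probe sets, quantile normalization, 16 added on the linear scale, no filter, a stricter filter, eBayes with trend and robust) gave 0. The Cbx6 difference kept its sign in all 13 settings, between -1.60 and -0.99, and was -1.08 as the mean of its probe sets. Both Cbx6 probe sets stayed lower in each setting run for them. Since the groups did not overlap in either probe set, only quantile normalization could have turned the Cbx6 sign. The kept sign is therefore no added support, and the range describes size. Ezh2 (-0.32 to -0.14) and Cbx8 (0.05 to 0.28) also kept their signs in 13 settings, while Cbx2, Cbx7, Rnf2, Ezh1, Eed and Suz12 changed sign in at least 1. Some settings could not turn a sign. No filter, the stricter filter and the replicate block returned the main difference of each member they held. The mean of probe sets did so for Ezh2, which has a single probe set. Cbx7 failed the stricter filter. The number of arrays limits all values.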
